A study of Oryza sativa with 8 samples.

Results

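The response of the rice leaf blade to salt was described from 4 of the 8 RNA sequencing samples of the series, 2 blade samples kept as control and 2 from plants given 100 mM NaCl for 24 h. All plants were Oryza sativa grown in hydroponic culture, and the sample labels name no variety and no plant age. The series asks which transcripts change in a salt-tolerant landrace. The blade table lists 4623 of the 5827 gene identifiers listed in either tissue, and every one of these genes entered the description. The authors had already selected them, with a highest q of 0.0499 in the authors' deposited table, and the table holds 1 mean per group. No value per sample was at hand, so neither the spread between samples nor the overlap of the groups can be given, and unlisted genes were not analysed here. Nothing in the labels tells whether the 2 samples in each group are different plants, so the authors' q may measure a technical spread only.

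The leaf blade is the main photosynthetic organ of rice, and its mRNA is dominated by transcripts for the small subunit of Rubisco, the light harvesting proteins and the photosystems. Salt in the root medium first limits water uptake and raises abscisic acid, a hormone that closes stomata and switches on genes for protective proteins, and later loads the blade with sodium. Abundance is given as TPM, a read count scaled for transcript length so that every library sums to the same total. A gain for some transcripts is therefore a loss of share for others, and TPM shows the share and not the amount of RNA in a blade.

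Of the blade markers chosen for the tissue, RBCS, CAB2R and RCA were listed with control means of 53569, 15132 and 8160 TPM. A further marker, entered as PSBO and without a checked name, was listed with a control mean of 8406 TPM. The last blade marker, CAB1R, was not listed. The markers chosen for shoot meristem (OSH1, OSH15), root (RCC3) and guard cells (SLAC1) were not listed, and their levels were not analysed here. In bulk tissue, fewer cells of a type and less RNA per cell cannot be told apart, which holds for every value that follows. The listed genes summed to a mean of 10745825 estimated reads in control and 9995664 in salt samples.

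The change with salt was taken as log2((salt TPM + 1)/(control TPM + 1)), which understates the change of genes with few TPM. By this measure 2400 listed genes (51.9%) were higher and 2223 (48.1%) lower with salt. Both shares are of listed genes and not of all genes, as are all background shares below. The sizes were unequal: 842 genes (18.2%) were higher by at least 1 and 231 (5.0%) lower by at least 1, 174 and 22 passed 2, and 59 and 4 passed 3. The median change was 0.82 among the genes that were higher and -0.43 among those that were lower. The largest rise among all listed genes was 6.93, for LEA3-1, and the largest fall was -4.08.

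The size of this asymmetry depends on the scaling and on the pseudocount. Fold changes in the authors' deposited table lay, on the log2 scale, a median of 0.19 below the ratio of mean TPM. On the TPM scale the selected genes were therefore not centred on 0. Among genes that were higher, 12 had a change under 0.19, whereas 346 (15.6%) of the genes that were lower lay within 0.19 of 0. Of the genes past 1 in either direction, 78.5% were higher by TPM, but 61.3% were higher by the authors' deposited table, with 917 genes up and 578 down. The pseudocount alone also moved the counts by TPM, to 1105 up and 392 down with 0.1 and to 364 and 91 with 5. The parts of scaling and pseudocount in the difference were not told apart. The direction differed for 8 genes, none with a change beyond 0.05.

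The direction of change differed with abundance. Among the 204 listed genes with a mean under 1 TPM over both groups, 67.2% were higher. The share was 53.7% of the 1381 genes from 1 to 10 TPM, 52.3% of the 2335 genes from 10 to 100 TPM and 46.2% of the 625 genes from 100 to 1000 TPM. Of the 78 genes at 1000 TPM and over, 12 (15.4%) were higher and 66 were lower. The median change fell with level beside these shares, from 0.67 under 1 TPM to 0.63, 0.43, -0.05 and -0.24. Few higher genes lay just above 0, so a median can jump where higher and lower genes are near equal in number. These medians depend on how the classes are set: with classes by control TPM alone, the median under 1 TPM was 1.12 and that from 10 to 100 TPM turned to -0.14. By the authors' deposited table, the medians were 2.42 under 1 TPM, 0.29 from 10 to 100 TPM, -0.24 from 100 to 1000 TPM and -0.42 at 1000 TPM and over. Past a change of 1 were 410 higher and 111 lower genes from 1 to 10 TPM, against 1 higher and 4 lower at 1000 TPM and over.

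**Figure D1:**
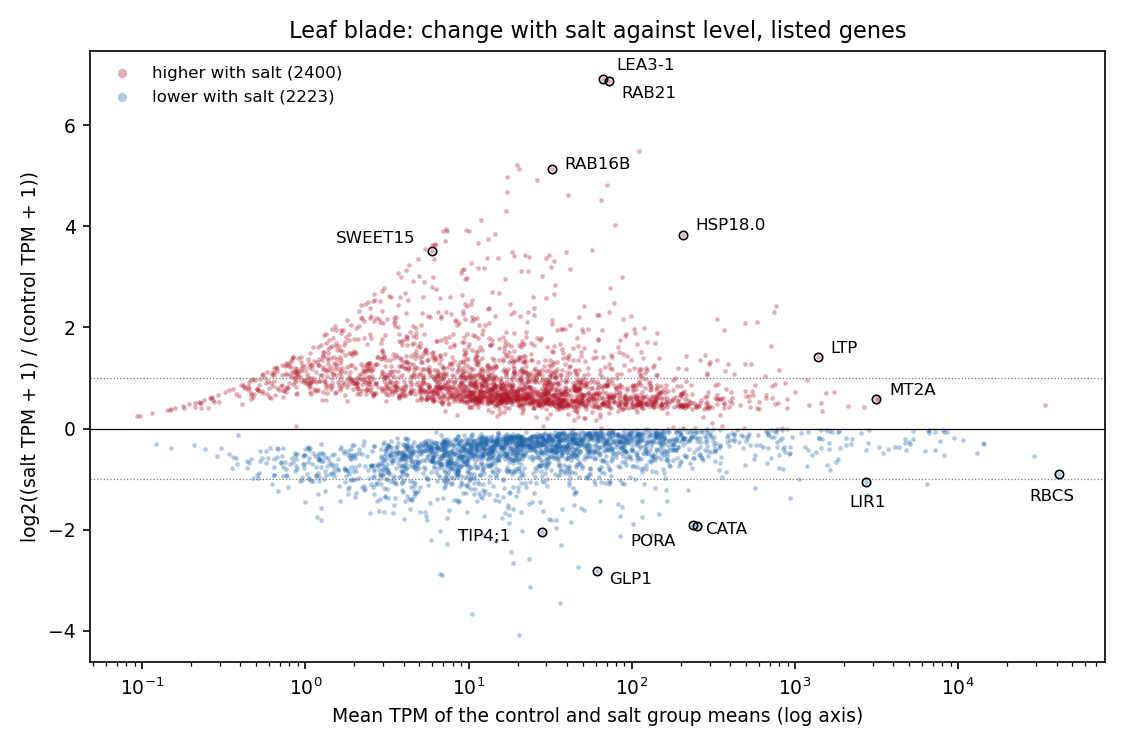
Change with salt against the mean TPM of both groups (log axis) for each of the 4623 listed genes, red where higher and blue where lower, with dotted lines at a change of 1 and -1. The largest rises (LEA3-1 and RAB21) lie near 67 and 72 TPM, and nearly all genes at the right end, RBCS among them, lie below 0; the empty strip just above 0 has no counterpart below it.

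At the low end, many genes were barely detected in control blades. There were 404 genes under 1 TPM in control and 200 in salt. A mean of 0 reads was listed for 41 genes in control, which had means of 7.5 to 258 reads with salt, and for 7 genes in salt, which had means of 6.5 to 16.5 reads in control. From under 1 TPM to at least 10 TPM went 28 genes, and 3 went the opposite way. Averaged over both groups, 53 genes had under 10 reads, 42 of them higher and 11 lower. Of the 53, 15 rose and 4 fell by at least 1. Among all listed genes 51.9% were higher, and 18.2% rose and 5.0% fell by at least 1. An average of 10 reads can be reached on salt reads alone, so the 53 genes do not include every gene with few reads in control.

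**Figure D2:**
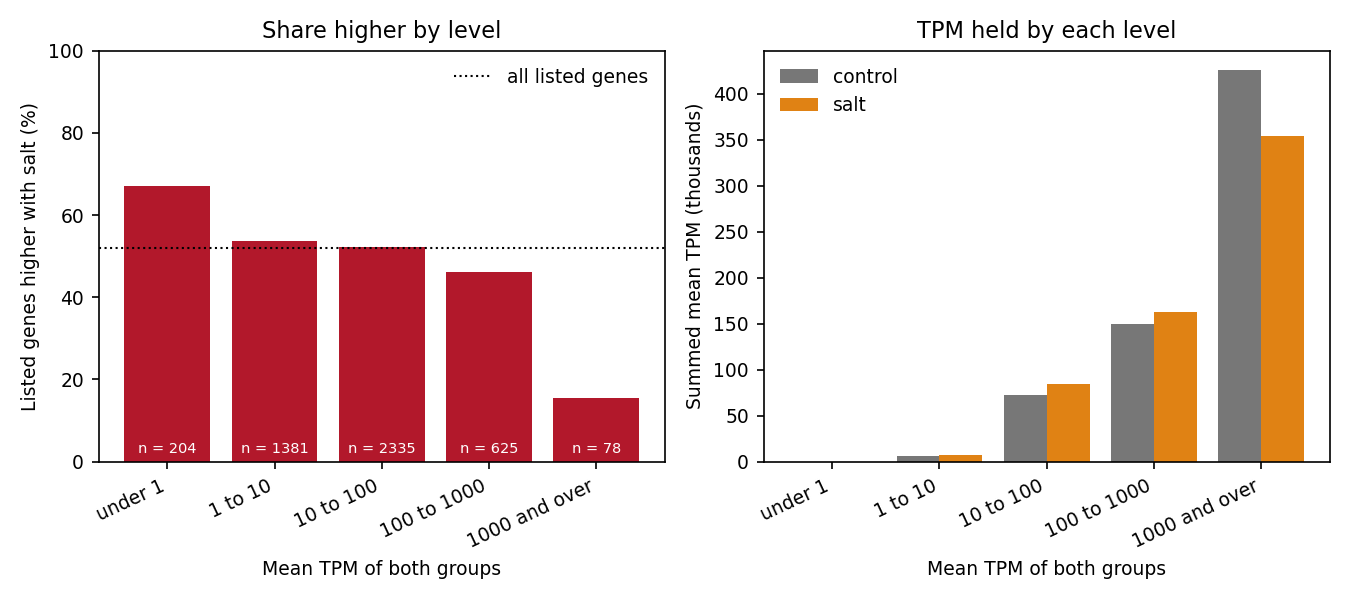
Left, the share of listed genes higher with salt in each class of mean TPM, with the share of all listed genes as a dotted line and the number of genes in each bar. Right, the summed mean TPM of each class in control (grey) and salt (orange); the class of 1000 TPM and over fell from 425452 to 354213 TPM while the other classes gained.

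The abundant class therefore set the balance of the whole list. Its 78 genes held 425452 TPM in control and 354213 in salt, a difference of -71239 TPM. The genes under 1000 TPM together gained 26472 TPM. Over all listed genes, summed gains of 81190 TPM stood against summed losses of -125957 TPM, and the listed share of all TPM went from 65.4% to 60.9%. Unlisted genes took up the difference, from 34.6% to 39.1% of TPM. The net of -44767 TPM rests on few genes and on the scaling: it was -19976 TPM without RBCS, -3823 TPM without the 4 Rubisco and Calvin cycle genes of chromosome 12, an alternative chosen after seeing the data, and -120369 TPM with salt TPM rescaled by the 0.19 offset.

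Losses were concentrated and gains were spread. Just 12 genes held 50.3% of the summed loss, while 88 genes were needed for 50.2% of the summed gain. The 10 largest losses made up 47.4% of the loss and the 10 largest gains 24.3% of the gain. A loss of at least 1000 TPM was seen for 20 genes and a gain of that size for 5. The listed TPM was also less concentrated with salt: 50% of the summed TPM of the listed genes lay in 30 genes in control and in 44 genes in salt.

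**Figure D3:**
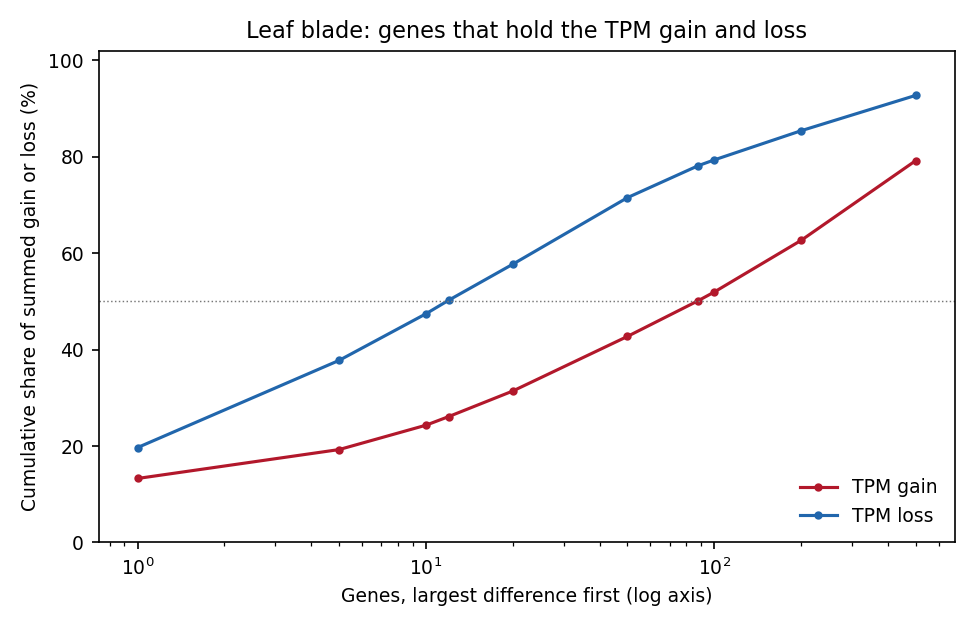
Cumulative share (%) of the summed TPM loss (blue) and gain (red) against the number of genes counted, largest difference first, on a log axis. The loss curve passes 50% at 12 genes and the gain curve at 88.

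The leading loss was that of RBCS (Os12g0274700), which encodes the small subunit of Rubisco, the enzyme that fixes carbon dioxide. It was the most abundant listed transcript in control blades, at 53569 TPM, and stood at 28778 TPM with salt. This single gene made up 19.7% of all listed loss, with a change of -0.90 and q = 6.6e-72 in the authors' deposited table. Its mean reads were 604656 and 311124, and the 95% counting interval of the ratio, 0.536 to 0.539, covers counting error only. Another pair of genes on the same chromosome, Os12g0291100 and Os12g0291400, are members of the Rubisco and Calvin cycle list without a checked name. The former went from 34291 to 23578 TPM, 8.51% of the loss, and the latter from 8762 to 4113 TPM, 3.69% of the loss. The mean reads of all 3 are not means of whole numbers, as where reads are shared out between similar copies. The split between these genes is therefore uncertain. Their sum is less so: the 4 Rubisco and Calvin cycle genes on chromosome 12 together went from 9.88% to 5.78% of all TPM, or 32.5% of the loss, a change of -0.77 for the sum.

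The photosynthesis lists moved together. The lists held 11 light harvesting proteins, 23 photosystem and electron transport proteins and 18 Rubisco and Calvin cycle proteins, of which 9, 20 and 16 were listed, and all 45 were lower, where 48.1% of listed genes were. Their share of all TPM went from 33.3% to 25.5%, a net -78797 TPM that equals 62.6% of the summed loss. They supplied 10 of the 12 largest losses and 26 of the 40 largest. Without the 4 genes on chromosome 12, the other 41 still went from 23.5% to 19.7% of TPM. The falls were small for each gene, with a median of -0.29 and only 1 past -1. For 12 of the 45 the change lay within the 0.19 offset of 0. These were lower by TPM too, but the size of their fall depends on the scaling.

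Among light harvesting genes, CAB2R, a chlorophyll a/b binding protein of photosystem II, went from 15132 to 10873 TPM (change -0.48). RCABP89, of the same family, went from 11459 to 9808 TPM (change -0.22). Both had mean reads that are not means of whole numbers. In electron transport, PETE (plastocyanin) went from 16031 to 12873 TPM, PSAH (a photosystem I subunit) from 8250 to 6117 TPM and LFNR1 (the ferredoxin-NADP reductase of leaves) from 1644 to 1254 TPM, with changes of -0.32, -0.43 and -0.39. PSBW, a small photosystem II protein, and ADI1, a ferredoxin, had changes of -0.25 and -0.26. In the Calvin cycle, RPE and FBPASE changed by -0.29 and -0.27. RCA, the Rubisco activase, stood almost level by TPM at 8160 and 8022 (change -0.02); the authors' deposited table gave it -0.21 with q = 0.0083.

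LIR1, a light-regulated protein that binds ferredoxin-NADP reductase to thylakoids, was a larger loss by proportion. It went from 3698 to 1771 TPM, a change of -1.06, and ranked 10 among all listed losses. GDCSH, the H subunit of glycine decarboxylase in photorespiration, went from 1940 to 1177 TPM (change -0.72). LIR1 was named after its values were seen, as were FBPASE, GDCSH, GLP1, GLT2, LTP, GAPC1, GLYI-11, HOX24, LAC10 and HSP18.0.

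Photorespiration genes were mixed in direction. Of its 13 members 9 were listed, 6 lower and 3 higher, where 48.1% of all listed genes were lower. Their sum was 11135 TPM in control and 11487 TPM in salt. GS2, the chloroplast glutamine synthetase that recaptures photorespiratory ammonia, went from 1836 to 1395 TPM (change -0.40), and FD-GOGAT, its partner enzyme, from 545 to 491 TPM (change -0.15). GLO3, a glycolate oxidase of low level, rose from 2.15 to 4.72 TPM. Os03g0131200, a list member without a checked name, rose from 2578 to 3879 TPM and was the second largest gain of the whole table, 1.60% of the gain.

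Chlorophyll genes divided by pathway. All 8 listed of 12 synthesis genes were lower, with a median change of -0.28, and all 4 listed of 6 breakdown genes were higher, with a median of 1.34. Of all listed genes, 48.1% were lower and 51.9% higher. PORA, a light-dependent protochlorophyllide reductase, fell from 400 to 105 TPM (change -1.92, q = 2.4e-167 in the authors' deposited table). CHLH, the large subunit of magnesium chelatase, fell from 1003 to 587 TPM (change -0.77), with mean reads that are not means of whole numbers. CHLD and CHLI, the other chelatase subunits, changed by -0.46 and -0.29. SGR, the stay-green protein that starts chlorophyll removal, rose 12.6-fold from 1.43 to 18.04 TPM, with a 95% counting interval of 9.83 to 16.7-fold. RCCR1, which acts late in the same pathway, rose from 7.61 to 26.0 TPM. Chlorophyll itself was not measured.

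The gains had a different make-up from the losses. The largest by far was Os01g0200700, a member of the metallothionein and ferritin list without a checked name. It rose from 28378 to 39150 TPM, which alone made up 13.3% of the summed gain, and it was the most abundant listed transcript with salt. Its change was only 0.46, and 0.28 with q = 4.1e-04 in the authors' deposited table. Metallothioneins are small cysteine-rich proteins that bind metals. All 7 listed members of the metallothionein and ferritin list together went from 33644 to 46005 TPM, 5 of them higher and 2 lower. Among all listed genes, 51.9% were higher. MT2A rose from 2527 to 3775 TPM and MT1A from 43.7 to 166 TPM, whereas MT2C fell from 2091 to 1189 TPM and MT2B from 266 to 233 TPM. The name table also gives the latter pair each other's name, MT2B and MT2C.

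LTP, a lipid transfer protein that carries lipids to the cell surface, rose from 757 to 2021 TPM (change 1.41). It was the one gene at 1000 TPM and over that rose by at least 1, and ranked 3 among all gains. APX2, a cytosolic ascorbate peroxidase that removes hydrogen peroxide, rose from 1295 to 2145 TPM (change 0.73), and TIP1;2, a water channel of the vacuole membrane, from 1779 to 2437 TPM (change 0.45). GLYI-11, a glyoxalase that detoxifies methylglyoxal, rose from 606 to 1127 TPM (change 0.89). GAPC1, a cytosolic glyceraldehyde-phosphate dehydrogenase of glycolysis, rose from 1017 to 1405 TPM, 1.38-fold, while its scaled reads rose 1.74-fold, so its size differs between the measures.

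Large fold changes and large TPM gains were mostly different genes. The 842 genes that rose by at least 1 went from 13013 to 40279 TPM together and held 33.6% of the summed gain. The 59 genes that rose by at least 3 held 3.45% of it. On the losing side, the 231 genes that fell by at least 1 went from 28084 to 11802 TPM and held 12.9% of the loss. LEA3-1 ranked 1 by rise and 83 by TPM gained, and RAB21 ranked 2 and 73. HSP18.0, a small heat shock protein, combined both: it rose from 26.0 to 385 TPM, ranked 27 by TPM gained and 22 by rise.

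LEA (late embryogenesis abundant) proteins and the related dehydrins, which shield cell structures as water is lost, held the largest rises. All 6 listed of 10 members were higher, all by at least 1, with a median change of 4.15 beside 0.42 for all listed genes. Of all listed genes, 51.9% were higher and 18.2% higher by at least 1. LEA3-1 went from 0.11 to 134 TPM. Only 3 reads in the control libraries lie behind this ratio, whose counting interval ran from 433 to 6146-fold. RAB21 went from 0.23 to 144 TPM (interval 250 to 2350-fold), RAB16B from 0.86 to 64.4 TPM and RAB16C from 1.47 to 21.2 TPM. RAB16D had 0 reads in control and a mean of 30.0 with salt. With control set to 3 reads over its 2 libraries, that was at least 20.9-fold higher. These 4 RAB genes are dehydrins that sit on chromosome 11 and resemble each other.

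The abscisic acid list followed, with 18 of 26 members listed and a median change of 1.28. Of these 18, 16 were higher, 2 lower and 12 past 1, beside 51.9% higher and 18.2% past 1 among all listed genes. All 9 PP2C phosphatases of the list, a family known for holding the signal of the hormone in check, were higher. PP2C68 rose from 1.12 to 16.92 TPM (change 3.08), PP2C51 from 0.19 to 2.40 TPM (change 1.51), PP2C49 from 2.46 to 14.1 TPM (change 2.13) and PP2C30 from 11.4 to 53.5 TPM (change 2.14). Genes of hormone turnover were picked out after their values were seen. The 4 members entered under the NCED step of abscisic acid synthesis were mixed, 2 higher and 2 lower, and the lower pair were the only members of the list that were lower. NCED3, the one of them with a checked name, rose from 1.74 to 3.82 TPM (change 0.81), and the others had changes of 3.35, -0.47 and -0.48. The hydroxylase genes ABA8ox1 and ABA8ox3, of its breakdown, rose from 10.2 to 21.4 TPM and from 14.6 to 22.7 TPM.

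Heat shock proteins were the only list of which all members were listed and higher, 10 of 10, with a median change of 3.16. Past 1 were 9 of them, beside 18.2% of all listed genes, of which 51.9% were higher. Small heat shock genes have near-identical copies, so that several could not be named. HSP26.7, a chloroplast small heat shock protein, went from 0.035 to 11.9 TPM, where the control mean rested on 1 read over both libraries. HSP101, a chaperone that dissolves protein aggregates, went from 1.395 to 17.6 TPM, 12.6-fold by TPM and 20.9-fold by scaled reads. HSP82A, of the HSP90 family, went from 39.2 to 142 TPM (change 1.83). Of 17 stress transcription factors 10 were listed and all 10 were higher, 6 past 1. HSFA2A, a heat stress factor, went from 0.045 to 3.02 TPM on a control mean of 1.5 reads. NAC6, NAC5 and NAC3, of a family tied to drought and salt, had changes of 1.400, 1.28 and 1.19. Outside the lists, the homeobox gene HOX24 rose from 0.05 to 14.7 TPM and the laccase gene LAC10 from 0.30 to 18.9 TPM.

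**Figure D4:**
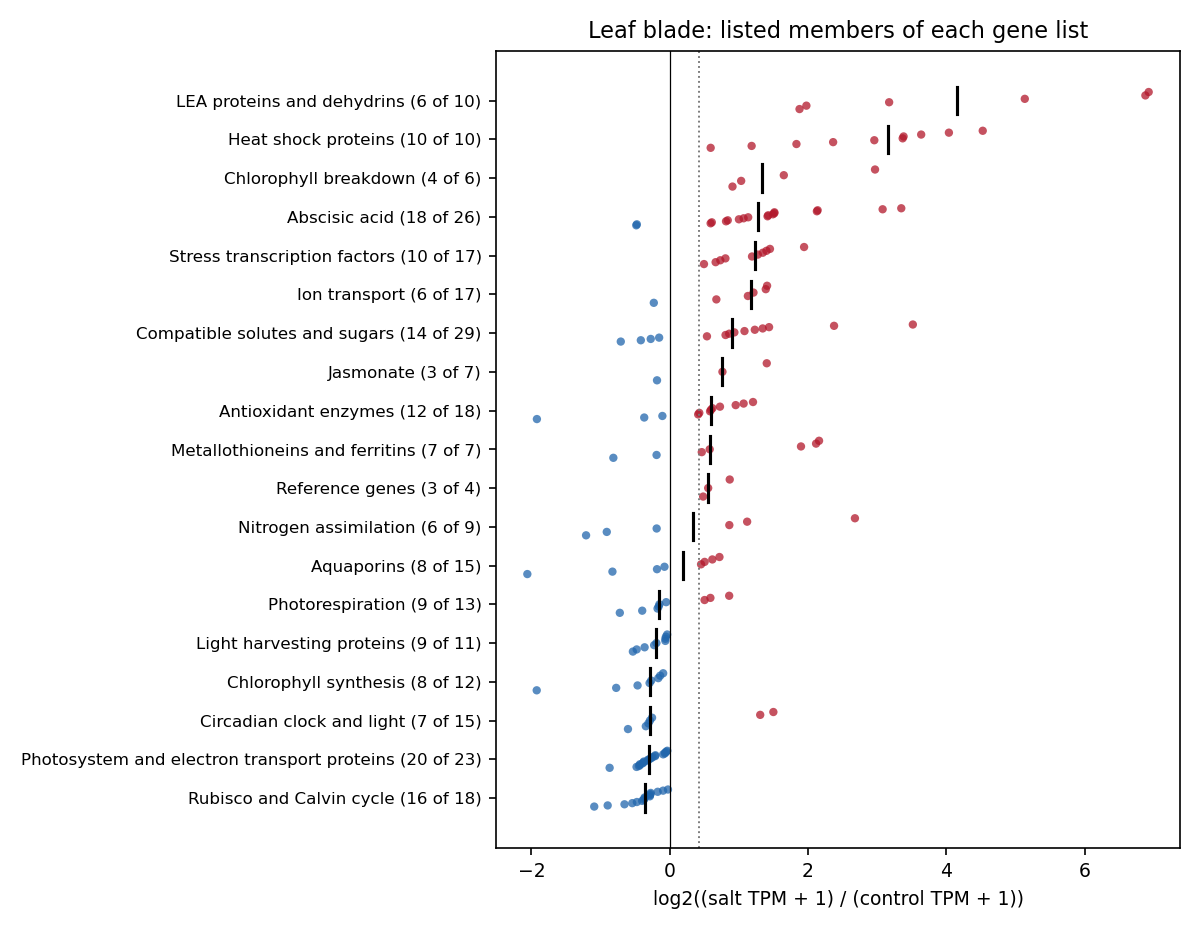
Change with salt of each listed member of 19 gene lists, red where higher and blue where lower, with the list median as a black bar, the median of all listed genes as a dotted line, and the number listed of all members in brackets. The LEA and heat shock lists have the highest medians, 4.15 and 3.16, and the light harvesting, chlorophyll synthesis, photosystem and Rubisco lists lie wholly below 0.

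Several lists split. Of 18 antioxidant genes 12 were listed, 9 higher and 3 lower, where 51.9% of all listed genes were higher. CATA, a catalase, fell from 375 to 98.4 TPM (change -1.92, q = 6.3e-147 in the authors' deposited table). CATB, given here as the other named catalase of the list, was higher, with a change of 0.60. SODCC2, a cytosolic superoxide dismutase, rose from 116 to 269 TPM (change 1.21). SODCC1 and SODA, of the same enzyme class, changed by 0.41 and 0.62. Aquaporins, the water channels, divided 4 and 4 among 8 listed of 15. TIP4;1 fell from 45.9 to 10.3 TPM (change -2.06) and TIP2;2 from 435 to 245 TPM (change -0.83), both of the vacuole membrane, while TIP1;2 of the same membrane rose. The plasma membrane channels PIP1;3, PIP2;1 and PIP1;2 changed by 0.72, 0.62 and 0.51, whereas PIP2;2 and PIP2;7 of the same membrane were lower, with changes of -0.08 and -0.18. Neither membrane's channels thus moved in a single direction.

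Transporters of sodium and potassium were mostly outside the table, with 6 of 17 ion transport genes listed. Of these, 5 were higher and 1 lower, beside 51.9% higher among all listed genes. HAK1 and HAK7, potassium carriers, rose from 1.10 to 3.87 TPM and from 9.46 to 26.8 TPM. CBL4, a calcium sensor whose Arabidopsis counterpart SOS3 governs sodium export, rose from 5.34 to 12.9 TPM. SALT, a lectin gene named for its response to salt, rose from 2.15 to 7.24 TPM, on means of 18 and 58 reads. An absence from the table does not show that a gene held its level.

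Of 29 genes for compatible solutes and sugars 14 were listed, 10 higher and 4 lower, beside 51.9% higher among all listed genes. SWEET15, a sucrose exporter, rose from 0.12 to 11.8 TPM (change 3.52, interval 46.6 to 279-fold), and SUS1, a sucrose synthase, from 8.73 to 23.7 TPM. OAT and P5CS2, which both lead to proline, rose from 13.2 to 29.0 TPM and from 1.41 to 3.60 TPM. In nitrogen assimilation 6 of 9 were listed, 3 in each direction. NIA1, a nitrate reductase, rose from 101 to 184 TPM, with mean reads that are not means of whole numbers. GDH1, a glutamate dehydrogenase, fell from 9.96 to 4.84 TPM, and GS1;2 changed by -0.19. GLT2, a glutamate synthase, fell from 31.3 to 4.93 TPM (change -2.45). GLP1, a germin-like protein of the cell wall, fell further than any other named gene, from 108 to 14.4 TPM (change -2.83).

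Clock and light genes were 7 of 15 listed, 2 higher and 5 lower, where 51.9% of all listed genes were higher. PRR37, a clock repressor, went from 43.1 to 28.0 TPM and PHYC, a phytochrome, from 15.96 to 12.4 TPM, with changes of -0.60 and -0.34. LUX, a clock gene, and HD1, a flowering regulator, rose from 0.565 to 3.43 TPM and from 0.255 to 2.11 TPM on control means of 11 and 6.5 reads. The labels give no hour of sampling, so its part in these values was not tested. Of 7 jasmonate genes 3 were listed: JAZ12 and JAZ6, repressors of the hormone's signal, changed by 1.404 and 0.76, and AOC, of its synthesis, by -0.18. Among 4 genes often used as references, 3 were listed and all 3 were higher, with a median change of 0.56. ACT1 rose from 40.1 to 59.4 TPM, by 0.38 in the authors' deposited table.

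The response differed little between most chromosomes, as read from the identifiers. The share of listed genes that were higher lay between 44.6% and 56.0% on chromosomes 1 to 11 and was 40.5% on chromosome 12, where 90 of 222 were higher. The median change was negative on chromosomes 4, 7 and 12, at -0.11, -0.14 and -0.24, and 0.23 to 0.52 on the others. Few higher genes lay just above 0, so these medians follow the share higher and are no separate measure of size. Chromosomes 4 and 8, at -0.11 and 0.23, had medians of 0.81 and 0.79 among higher genes. Among lower genes they had -0.42 and -0.45. Rises of at least 1 made up 13.1% of listed genes on chromosome 12 and 22.4% on chromosome 1. These are descriptions of selected genes, with no test.

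In TPM, chromosome 12 stood apart. Its net difference was -40427 TPM, it went from 12.6% to 8.56% of all TPM and it carried 35.3% of all listed loss. The 4 Rubisco and Calvin cycle genes held 92.2% of its loss, and without them the chromosome gained a net 517 TPM. Its share of higher genes and its median hardly moved without them, at 41.3% and -0.23, so the low share and the large loss rest on different genes. Chromosome 1 carried 28.2% of all gain, with a net 3075 TPM, which became -7698 TPM without Os01g0200700. The next largest net losses were those of chromosome 7, at -4744 TPM, and chromosome 6, at -3138 TPM.

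**Figure D5:**
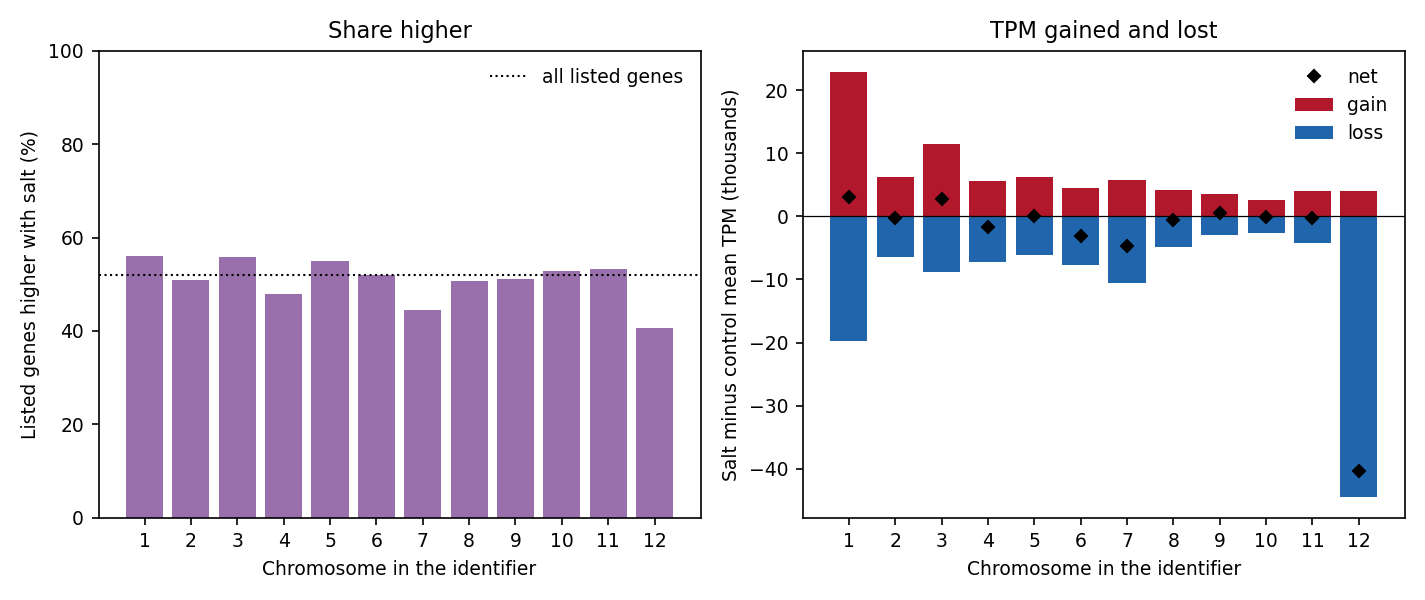
Left, the share of listed genes higher with salt on each chromosome, with the share of all listed genes as a dotted line. Right, the summed gain (red), summed loss (blue) and net difference (diamonds) in mean TPM; chromosome 12 has the lowest share, 40.5%, and a net difference of -40427 TPM.

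Within chromosomes, changes of neighbours in the table were compared by locus number, which follows gene order. Of 935 pairs of next listed genes whose locus numbers differ by at most 200, 62.5% changed in the same direction, beside 54.2% of all 4611 next pairs on a chromosome. In 68 such pairs both genes rose by at least 1, and in 5 both fell by at least 1. In 17 pairs the genes passed 1 in opposite directions. Pairs past 1 were not counted among all 4611 next pairs, so these counts have no background. Of all listed genes, 18.2% rose and 5.0% fell by at least 1. The 68 and the 5 therefore cannot be compared directly, and no clustering of rises is read from them. Tandem copies that may share reads can be among close pairs, and their part was not tested. In 99 blocks of 50000 locus numbers with at least 20 listed genes, the share that rose by at least 1 ran from 0% to 42.9%, with a median of 17.2%. The highest was a block of chromosome 6 with 15 of 35 genes.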

How the data were processed

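Per the labels' protocols, mRNA libraries were made with a SMARTer kit from leaf RNA. The submitters' processing notes name HISAT without a version and the build mm10, which is of mouse and cannot belong to these rice identifiers. For the counter, annotation and test, nothing is stated in the sources at hand. Per the file headers, the authors deposited for each listed gene a log2 fold change, a q-value and the mean TPM, mean FPKM and mean read count of each group. The deposited read counts are estimated counts: the means of 258 genes (5.58%) are not means of 2 whole numbers. Columns headed Case1 were taken as salt, the other blade group. All value columns of samples were used (0 left out).

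Computed here were the change with a pseudocount of 1, counts, medians, TPM sums, and exact (Clopper-Pearson) 95% counting intervals of read ratios scaled by 1.05 to the TPM ratio, which cover counting error only. A group at 0 reads was set to a floor of 3 reads. No test was added, since the table holds selected genes and group means. The counts of genes past a change of 1 were tested on simulated data, and the TPM sums were not.

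The files hold no gene names. The 20 lists held 271 pairs of name and identifier from general knowledge, and 12 pairs were added later. A gene was named where a name table of another assembly had the name on the chromosome in the identifier. The name also had to follow the order of locus numbers (8 of 1750 order pairs reversed). A set of 6 names of gene copies was excluded besides, and 174 pairs were named. All list members enter the counts by identifier. Members and lists were chosen with earlier results of these data known. Of named genes, the text gives the 10 with the largest gain, loss, rise and fall, up to 4 of largest change per list, and of unnamed identifiers the 2 largest gains and 2 largest losses; others are marked. Software was SciPy 1.17.1, numpy 2.4.6 and pandas 2.3.3 under Python 3.11.15, with matplotlib 3.10.9 for figures. Alternatives were another pseudocount, FPKM, reads or the deposited fold change in place of TPM, filters on reads or q, other level classes and genes left out.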

Additional observations from a re-analysis of the deposited data

How the results depend on the processing

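No paired analysis was possible because the blade table holds group means only, and for the same reason leaving out each replicate in turn could not be run. Of the alternatives tried on counts, medians and sums, 143 stayed within 1.5 times the count or 0.1 of the median, 13 moved further and 1 turned direction. Some of the 143 could not move, so their number does not measure robustness. The read filter removed no listed member of any list, and leaving out genes that lost TPM cannot alter the summed gain. The 842 genes that rose by at least 1 became 364 with a pseudocount of 5, and the 231 that fell by at least 1 became 392 with a pseudocount of 0.1, 91 with a pseudocount of 5 and 578 by the authors' deposited table. The median change under 1 TPM, 0.67, became 1.12 with classes set by control TPM, 1.97 with a pseudocount of 0.1 and 2.42 by the authors' deposited table. From 10 to 100 TPM, 0.43 turned to -0.14 with classes set by control TPM and was 0.29 by the authors' deposited table, which also gave -0.24 from 100 to 1000 TPM and -0.42 at 1000 TPM and over. The net TPM of -44767 became -120369 with salt TPM rescaled by the 0.19 offset, -19976 without RBCS and, as an alternative chosen after seeing the data, -3823 without the 4 Rubisco and Calvin cycle genes of chromosome 12. The rescaling lowers every salt value by the same factor, so -120369 is not a net share of all TPM. The cause of the other moves was not tested. For named genes, no direction turned; the change moved by at most 0.5 in 184 comparisons and by more in 32, all for genes of few TPM in control.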

Other observations

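Mean reads divided by mean TPM give the length of a transcript relative to others in the table. Relative to the median of all listed genes, this length had a median of 0.814 for genes that rose by at least 1, 0.778 for those that fell by at least 1, 1.05 for the genes between and 0.559 for the 78 genes at 1000 TPM and over. Short transcripts were thus common among large changes in either direction. Among genes of at least 100 TPM, chromosome 11 had the largest share higher, 18 of 28 genes (64.3%), beside 35.1% to 47.8% on the others. It is the extreme of 12 chromosomes and rests on few genes. Over all its listed genes 53.2% were higher, beside 51.9% over all chromosomes. The block of 50000 locus numbers with the largest net loss lay on chromosome 12, at -41386 TPM, and that with the largest net gain on chromosome 1, at 10857 TPM.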
